A study of Mus musculus with 6 samples.

Results

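The genes described here are 10 cytochrome P450 genes of the mouse liver, 7 of the Cyp3a subfamily (Cyp3a11, Cyp3a13, Cyp3a16, Cyp3a25, Cyp3a41a, Cyp3a44 and Cyp3a59) and 3 of the Cyp2b subfamily (Cyp2b9, Cyp2b10 and Cyp2b13). They were taken by gene symbol from the 52459 genes of the deposited count table, and all 10 symbols were found there. The rule uses no measured value, but the symbols were chosen with earlier results of these data known. 9 of them had enough counts to be tested, among 17032 tested genes, and Cyp3a41a did not. The table comes from RNA-Seq of the livers of 6 male mice of strain C57BL6J, all of the Alb-Cre/Cas9 F1 generation, in which Cre driven by the albumin promoter switches on the nuclease Cas9 in hepatocytes. Each mouse was injected intravenously at 4 to 5 weeks of age with an AAV8 vector that carried a guide RNA, a control guide in mice 5.1, 7.1 and 7.2 (sgCtrl) and a guide against Prdx2 in mice 1.1, 1.3 and 3.2 (sgPrdx2). All 6 mice were then treated with diethylnitrosamine (DEN), a carcinogen of the liver, at 100 mg/kg 3 weeks after the vector, and ate a choline-deficient high-fat diet (CDA-HFD) for 6 months from 1 week after DEN, and they were 8 months old when the livers were taken. The comparison of sgPrdx2 with sgCtrl livers addresses what losing Prdx2, a peroxidase that removes hydrogen peroxide, in hepatocytes does to a liver on its way to cancer. The livers are whole-tissue samples of 1 mouse each. The study aimed the knockout at hepatocytes by pairing Cre-dependent Cas9 with the AAV8 vector, so other cell types of the liver were not its target. It takes islets that kept the PRDX2 protein in sgPrdx2 livers for cells the vector did not reach. Whether a frozen piece held tumor or nontumor tissue is not given in the sources used here.

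CYP3A and CYP2B enzymes sit in the endoplasmic reticulum of hepatocytes, where they oxidize drugs, steroids, bile acids and other foreign or lipophilic molecules with electrons passed on by the reductase Por. Their genes are textbook targets of the nuclear receptors PXR (gene Nr1i2) and CAR (gene Nr1i3), which bind DNA as heterodimers with RXR, at paired copies of a hexamer related to AGGTCA. Cyp3a11 is the classical PXR target of mouse liver and Cyp2b10 the classical CAR target, whereas Cyp3a41a, Cyp3a44, Cyp2b9 and Cyp2b13 are known for higher expression in female than in male mouse liver.

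In genome build GRCm38 the 7 Cyp3a genes lay on chromosome 5 within 8.22 Mb and the 3 Cyp2b genes on chromosome 7 within 0.31 Mb, all of them annotated as protein coding. Cyp3a11 (ENSMUSG00000056035.8) spanned chr5:145854426-145879964 on the minus strand, and Cyp3a44 (chr5:145773983-145805874), Cyp3a41a (chr5:145694049-145720136) and Cyp3a16 (chr5:145436309-145469723) followed it on the same strand. Cyp3a25 (chr5:145977194-146009618, minus strand) and Cyp3a59 (chr5:146079257-146113287, plus strand) stood head to head, and Cyp3a13 (chr5:137892932-137921619, minus strand) lay apart from the other 6. Cyp2b10 (chr7:25897620-25926624), Cyp2b13 (chr7:26061497-26096197) and Cyp2b9 (chr7:26173411-26210661) all ran on the plus strand.

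Sequence likeness decides how far a count can be assigned to 1 of these genes. Over their coding sequences Cyp3a25 and Cyp3a59 were 97.5% identical, Cyp3a41a and Cyp3a44 95.8%, Cyp3a11 and Cyp3a44 94.9%, and Cyp2b9 and Cyp2b13 92.7%. Cyp3a13 was the most distant Cyp3a gene, at 74.7% to 76.5% identity with the others. Of all stretches of 50 bases in the transcripts of Cyp3a41a, 98.6% also occurred in a transcript of another gene, mostly in Cyp3a41b. The share was 30.0% for Cyp3a59, 27.3% for Cyp2b13, 26.8% for Cyp3a25, 26.5% for Cyp3a44, 11.2% for Cyp2b9, 10.7% for Cyp3a16, 8.7% for Cyp2b10, 6.7% for Cyp3a11 and 0.0% for Cyp3a13. How the authors assigned reads that match several genes is not given in the sources used here, so the split of counts within the pairs Cyp3a25 with Cyp3a59, Cyp3a41a with Cyp3a44, and Cyp2b9 with Cyp2b13 is uncertain.

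The bases just before the start site are shown for 8 members, because the closest pairs carry nearly the same letters there. They come from RefSeq on build GRCm38.p6, run 5′ to 3′ on the strand of the gene, cover up to 250 bases before the RefSeq start, and end where the gene begins in the GENCODE annotation. Capitals mark the hexamers AGGTCA and AGTTCA read on either strand, which appear as TGACCT and TGAACT on the opposite one. The head-to-head pair Cyp3a25 and Cyp3a59 comes first (chr5:146009619-146009868, minus strand, and chr5:146079008-146079256, plus strand).
Cyp3a25: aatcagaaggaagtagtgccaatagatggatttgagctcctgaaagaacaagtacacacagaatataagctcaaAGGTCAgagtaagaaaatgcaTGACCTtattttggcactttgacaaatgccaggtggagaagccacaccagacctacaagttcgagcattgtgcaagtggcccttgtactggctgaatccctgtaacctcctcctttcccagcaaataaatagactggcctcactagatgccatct
Cyp3a59: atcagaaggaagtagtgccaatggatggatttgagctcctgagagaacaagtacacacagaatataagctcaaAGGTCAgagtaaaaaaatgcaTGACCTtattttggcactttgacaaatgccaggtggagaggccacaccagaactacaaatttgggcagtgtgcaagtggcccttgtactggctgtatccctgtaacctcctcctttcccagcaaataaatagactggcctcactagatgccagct
The other Cyp3a genes shown are Cyp3a11, the most abundant member (chr5:145879965-145880104, minus strand), and the pair Cyp3a44 and Cyp3a41a (chr5:145805875-145806124 and chr5:145720137-145720386, minus strand).
Cyp3a11: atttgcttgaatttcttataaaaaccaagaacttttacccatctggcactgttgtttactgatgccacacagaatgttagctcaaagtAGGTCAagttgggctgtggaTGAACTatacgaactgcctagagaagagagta
Cyp3a44: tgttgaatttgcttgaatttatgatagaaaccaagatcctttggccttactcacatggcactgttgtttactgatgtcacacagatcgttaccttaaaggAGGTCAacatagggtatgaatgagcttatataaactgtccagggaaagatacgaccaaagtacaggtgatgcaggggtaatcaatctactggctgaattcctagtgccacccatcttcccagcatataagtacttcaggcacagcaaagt
Cyp3a41a: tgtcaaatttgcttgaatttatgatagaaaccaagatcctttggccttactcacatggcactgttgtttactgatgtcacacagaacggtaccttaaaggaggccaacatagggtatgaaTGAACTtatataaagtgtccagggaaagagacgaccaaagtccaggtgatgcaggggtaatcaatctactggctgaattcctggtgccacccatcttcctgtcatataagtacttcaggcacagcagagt
The 3 Cyp2b genes follow (chr7:26173159-26173408 for Cyp2b9, chr7:26061245-26061494 for Cyp2b13 and chr7:25897408-25897619 for Cyp2b10, plus strand).
Cyp2b9: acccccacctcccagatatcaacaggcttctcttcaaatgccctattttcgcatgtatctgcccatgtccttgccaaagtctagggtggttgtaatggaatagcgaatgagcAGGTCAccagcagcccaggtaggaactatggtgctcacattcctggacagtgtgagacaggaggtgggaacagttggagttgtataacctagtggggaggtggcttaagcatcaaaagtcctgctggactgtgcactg
Cyp2b13: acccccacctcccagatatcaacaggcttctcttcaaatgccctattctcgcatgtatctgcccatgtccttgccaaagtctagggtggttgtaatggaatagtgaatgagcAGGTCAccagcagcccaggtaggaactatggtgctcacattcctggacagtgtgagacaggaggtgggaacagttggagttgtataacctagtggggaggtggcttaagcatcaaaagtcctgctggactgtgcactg
Cyp2b10: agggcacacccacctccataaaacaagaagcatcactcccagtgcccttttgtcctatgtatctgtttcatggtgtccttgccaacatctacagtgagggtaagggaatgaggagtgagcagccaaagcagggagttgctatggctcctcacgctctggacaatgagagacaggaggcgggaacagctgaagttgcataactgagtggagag

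The 250-base windows of Cyp2b9 and Cyp2b13 were 99.2% identical, those of Cyp3a25 and Cyp3a59 94.8%, and those of Cyp3a41a and Cyp3a44 94.4%, while Cyp2b10 matched Cyp2b9 at 68.8%. AGGTCA occurred in 6 of the 10 members' windows, against 14.0% of 32536 RefSeq windows of the same length. The 6 include both windows of near-identical pairs, so they are not independent. Cyp3a25 and Cyp3a59 each held 2 copies on opposite strands, Cyp3a11 held 1 at position -162 from its RefSeq start, Cyp3a44 1 at -150, and Cyp2b9 and Cyp2b13 1 at -138. AGTTCA occurred in Cyp3a11 (at -142) and Cyp3a41a (at -130), against 11.8% of all windows. The close pair Cyp3a44 and Cyp3a41a thus differed in hexamers, with no AGTTCA in the window of the first and no AGGTCA in that of the second. None of the 10 windows held 2 of these hexamers arranged as direct repeats spaced by 1, 3 or 4 bases or as an everted repeat spaced by 6 bases, nor the letters TTCNNNGAA, which 7.04% of all windows held. These are matches of letters in short windows and say nothing of where a receptor sits in the liver, and enhancers farther away were not searched.

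The libraries held 37462102 to 56865293 counts on genes. Values are given as CPM, the usual count per unit of library size, with library sizes and their TMM scaling taken over all tested genes. On this scale 3 counts equal 0.0555 to 0.0921 CPM, depending on the liver. Prdx2 itself stood at 109, 117 and 132 CPM in the sgCtrl livers and at 99.0, 112 and 149 CPM in the sgPrdx2 livers, with a log2 fold change of 0.01 ± 0.18 (SE) and an adjusted p of 0.983 (quasi-likelihood test of edgeR, p-values adjusted by Benjamini-Hochberg). Transcript level thus set no group apart at the targeted gene, and a cut by Cas9 need not lower the amount of RNA. The female transcript Xist reached at most 0.205 CPM, and the Y-linked genes Ddx3y, Eif2s3y, Kdm5d and Uty stood at 4.08 CPM or more in every liver, the pattern of male mice.

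On the TMM scale the summed Cyp3a RNA, most of it Cyp3a11, lay higher in every sgPrdx2 liver than in any sgCtrl liver. Summed Cyp2b RNA overlapped between the groups. The sums were not tested, and edgeR called 1 of the 6 tested Cyp3a members. The higher level of Cyp3a11, the main Cyp3a gene, was not kept when counts were scaled to the sum of 10 hepatocyte markers, most of it Alb. The summed level of the 7 Cyp3a members was 2080, 1840 and 1360 CPM in sgCtrl livers 5.1, 7.1 and 7.2, and 3230, 2600 and 3510 CPM in sgPrdx2 livers 1.1, 1.3 and 3.2. The means were 1760 ± 366 and 3120 ± 466 CPM (SD, n = 3 livers each), a ratio of 1.77. The 3 Cyp2b members summed to 91.7, 68.0 and 137 CPM in sgCtrl livers and to 218, 142 and 116 CPM in sgPrdx2 livers. Their means of 99.0 ± 35.2 and 159 ± 52.9 CPM (SD, n = 3 each) gave a ratio of 1.60, and the highest sgCtrl liver lay above the lowest sgPrdx2 liver. In whole liver, fewer hepatocytes and less of these RNAs per hepatocyte cannot be told apart.

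Of the 9 tested members, 8 had a log2 fold change above 0, and the median was 0.83, beside -0.02 over all tested genes. By edgeR only Cyp3a59 rose at an adjusted p under 0.05 and none fell, where 1.79% of all tested genes rose and 1.54% fell (3.33% called in either direction). Adjusted p stood under 0.10 for 4 members, all higher, against 5.66% of tested genes higher and 10.4% in either direction. The unadjusted p stood under 0.05 for 6 members, all of them higher in sgPrdx2 livers, against 24.9% of tested genes in either direction. For 5 of them (Cyp3a11, Cyp3a13, Cyp3a16, Cyp3a25 and Cyp3a59) the sgPrdx2 livers all lay above the sgCtrl livers, which held for 16.7% of all tested genes. No member lay wholly lower, which held for 17.5%, or 34.2% in either direction. DESeq2, run as an alternative, gave 7 members an adjusted p and called 5 of them, all higher (Cyp3a11, Cyp3a13, Cyp3a25, Cyp3a59 and Cyp2b13), where it called 14% of 14799 genes, 7.89% higher. Members of a pair share sequence, so these counts are not counts of independent genes.

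**Figure D1:**
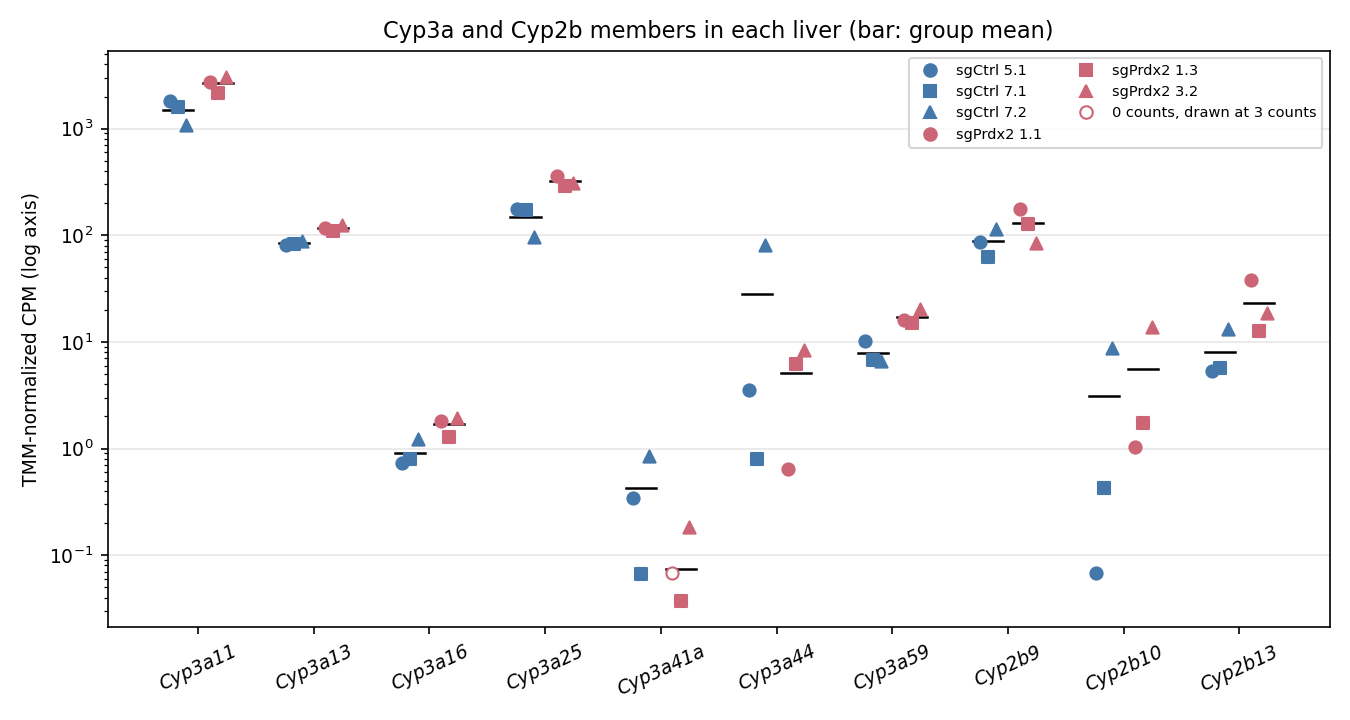
Level of each of the 10 members in each of the 6 livers, in TMM-normalized CPM on a log axis. Blue symbols are the sgCtrl livers, red symbols the sgPrdx2 livers, black bars the group means, and the open circle a liver with 0 counts drawn at 3 counts. Cyp3a11 lies highest in every liver (1080 to 3050 CPM), and the widest spreads within a group are those of Cyp2b10 and Cyp3a44 in the sgCtrl livers.

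Cyp3a11, the main drug-metabolizing Cyp3a enzyme of mouse liver, made up 79.8% to 86.9% of the summed Cyp3a CPM. It stood at 1800, 1580 and 1080 CPM in the sgCtrl livers and at 2730, 2180 and 3050 CPM in the sgPrdx2 livers, so that the groups did not overlap. The fold of 1.78, 0.83 ± 0.23 (SE) on the log2 scale, did not pass the test (adjusted p = 0.0832, edgeR).

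Cyp3a25, a Cyp3a enzyme of the postnatal liver, was the second most abundant member. The sgCtrl livers held 177, 174 and 96.8 CPM and the sgPrdx2 livers 362, 291 and 311 CPM. The groups did not overlap, with a fold of 2.16 (95% interval 1.55 to 2.99), a log2 fold change of 1.11 ± 0.24 (SE) and an adjusted p of 0.0522 by edgeR. Its near-copy Cyp3a59 held 10.1, 6.78 and 6.58 CPM in sgCtrl livers and 16.2, 15.0 and 20.3 CPM in sgPrdx2 livers. Cyp3a59 was higher in sgPrdx2 livers by 2.19-fold (95% interval 1.65 to 2.91), a log2 fold change of 1.13 ± 0.21 (SE), and was the member that passed the test (adjusted p = 0.0409, edgeR). Leaving out any 1 of the 6 livers left its log2 fold change at 1.01 to 1.36 and moved its adjusted p to 0.0512 to 0.157. For every 100 counts on Cyp3a25 there were 5.73, 3.90 and 6.80 counts on Cyp3a59 in sgCtrl livers and 4.47, 5.16 and 6.52 in sgPrdx2 livers, so the ratio overlapped between the groups. Together the pair summed to 187, 181 and 103 CPM in sgCtrl livers and 378, 306 and 331 CPM in sgPrdx2 livers.

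Cyp3a13, found in intestine as well as liver, varied least within a group. It stood at 80.8, 82.6 and 88.3 CPM in sgCtrl livers and at 118, 110 and 124 CPM in sgPrdx2 livers, and no transcript stretch of it occurred elsewhere. Its fold of 1.40 (95% interval 1.18 to 1.65), a log2 fold change of 0.48 ± 0.12 (SE), had an adjusted p of 0.0693 (edgeR). Cyp3a16, known as a fetal Cyp3a gene, was low, with 0.731, 0.801 and 1.22 CPM in sgCtrl livers and 1.82, 1.28 and 1.93 CPM in sgPrdx2 livers. These values rest on 32 to 80 counts per liver, and its log2 fold change of 0.86 ± 0.29 (SE) had an adjusted p of 0.131 (edgeR). With 61 of the 1681 transcript stretches of Cyp3a16 shared with Cyp3a41a and 103 with the far more abundant Cyp3a11, its counts are uncertain.

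Cyp3a44 and Cyp3a41a, the female-type Cyp3a genes, were both highest in the same control liver. Cyp3a44 stood at 3.52 and 0.801 CPM in sgCtrl livers 5.1 and 7.1 but at 80.8 CPM in sgCtrl liver 7.2, and at 0.638, 6.14 and 8.45 CPM in the sgPrdx2 livers. The highest sgCtrl liver exceeded the lowest by 101-fold. The log2 fold change was -2.50 ± 1.48 (SE, adjusted p = 0.333, edgeR) with all 6 livers and 1.23 without sgCtrl liver 7.2. Cyp3a41a had only 15, 3 and 45 counts in sgCtrl livers and 0, 2 and 6 in sgPrdx2 livers, with the most again in sgCtrl liver 7.2 and sgCtrl liver 5.1 also above the sgPrdx2 livers, and the count of 0 in sgPrdx2 liver 1.1 allows up to 0.0684 CPM. Its near-copy Cyp3a41b, no member, had 3, 2 and 17 counts in sgCtrl livers and 1, 3 and 3 in sgPrdx2 livers. The pseudogene Cyp3a63-ps, which shares stretches with Cyp3a44, followed the same livers at 0.594, 0.0667 and 10.7 CPM against 0.182, 1.04 and 1.60 CPM (log2 fold change -2.04 ± 1.39 SE, adjusted p = 0.392, edgeR). Because read assignment is uncertain here, the 4 genes were also summed, which gave 4.52, 0.979 and 92.7 CPM in sgCtrl livers and 0.843, 7.27 and 10.3 CPM in sgPrdx2 livers. The sum shows the same single high liver as Cyp3a44 alone.

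Cyp3a57, the remaining Cyp3a gene of the table, was highest in sgCtrl liver 7.2 too, at 2.99 CPM, with 2.08 and 1.40 CPM in the other sgCtrl livers. The sgPrdx2 livers held 0.706, 0.869 and 1.57 CPM, which overlap the sgCtrl range, and the log2 fold change of -1.06 ± 0.39 (SE) had an adjusted p of 0.147 (edgeR). The other Cyp2b genes of the table were hardly seen, with 1 count in all for Cyp2b19, 0 for Cyp2b26-ps, at most 5 in a liver for Cyp2b23 and at most 13 for Cyp2b27-ps.

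Cyp2b10, the classical CAR target, was low and varied more within each group than between them. Its counts were 3, 19 and 465 in sgCtrl livers 5.1, 7.1 and 7.2, which are 0.0685, 0.423 and 8.85 CPM. The sgPrdx2 livers 1.1, 1.3 and 3.2 had 45, 93 and 450 counts, or 1.03, 1.72 and 13.8 CPM. The highest liver exceeded the lowest by 129-fold in the sgCtrl group and 13.5-fold in the sgPrdx2 group. The log2 fold change of 0.79 ± 1.41 (SE, adjusted p = 0.752, edgeR) became 4.45 without sgCtrl liver 7.2 and -1.18 without sgPrdx2 liver 3.2, so these 6 livers give no direction for Cyp2b10.

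Cyp2b9, the abundant Cyp2b gene of these livers, stood at 86.3, 62.0 and 115 CPM in sgCtrl livers and at 178, 128 and 83.7 CPM in sgPrdx2 livers. The groups overlapped, and the fold of 1.48 (95% interval 0.971 to 2.25) had an adjusted p of 0.296 (edgeR). Cyp2b13 stood at 5.28, 5.65 and 13.3 CPM in sgCtrl livers and at 38.4, 12.7 and 18.7 CPM in sgPrdx2 livers, where sgPrdx2 liver 1.3 lay just under sgCtrl liver 7.2. Its fold of 2.88 (95% interval 1.49 to 5.55), a log2 fold change of 1.52 ± 0.48 (SE), was the largest increase among the tested members and did not pass the test (adjusted p = 0.113, edgeR). For every 100 counts on Cyp2b9, Cyp2b13 had 6.11, 9.12 and 11.5 counts in sgCtrl livers and 21.5, 9.93 and 22.4 in sgPrdx2 livers. In sgPrdx2 livers 1.1 and 3.2 this ratio lay above every sgCtrl liver, and in sgPrdx2 liver 1.3 it lay within their range.

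**Figure D2:**
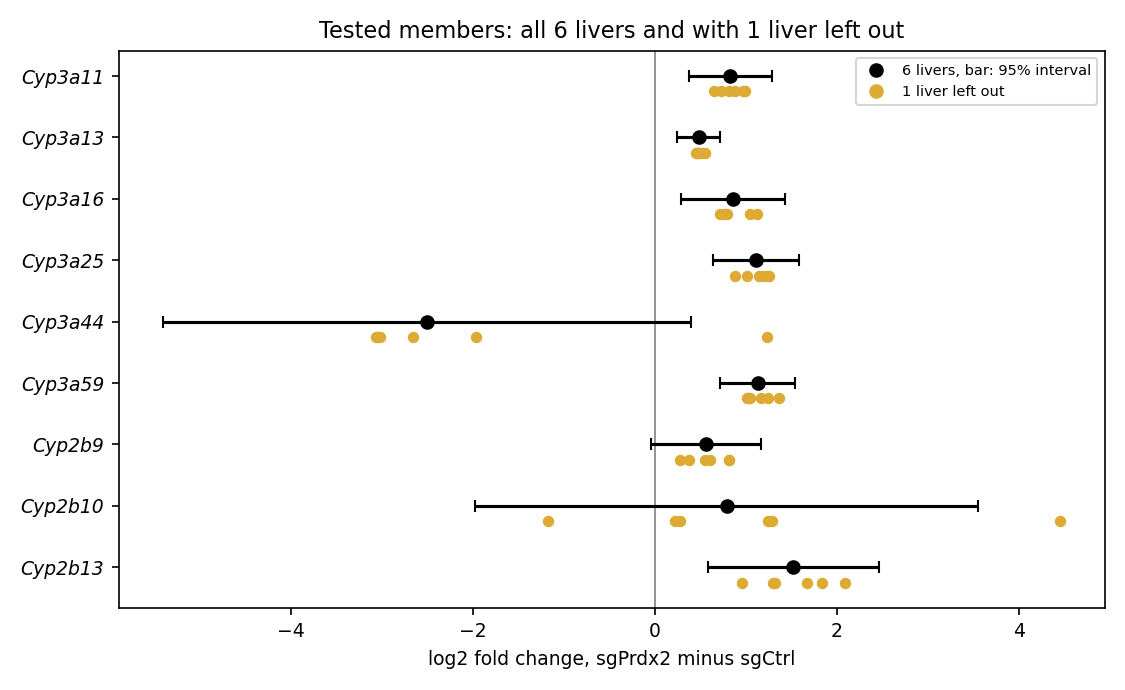
Log2 fold change of sgPrdx2 over sgCtrl livers for the 9 tested members on the TMM scale, with all 6 livers (black point, bar the 95% interval) and with 1 liver left out at a time (yellow points). The points of Cyp3a11, Cyp3a13, Cyp3a16, Cyp3a25, Cyp3a59, Cyp2b9 and Cyp2b13 stay above 0, while those of Cyp3a44 (-3.07 to 1.23) and Cyp2b10 (-1.18 to 4.45) lie on both sides of it.

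Levels were compared between members per kb of their longest protein-coding transcript. In the sgCtrl livers Cyp3a11 led with a mean of 635 CPM per kb and Cyp3a25 followed with 74.5, Cyp2b9 with 46.8, Cyp3a13 with 28.4, Cyp3a44 with 14.5, Cyp2b13 with 4.30, Cyp3a59 with 3.93, Cyp2b10 with 1.62, Cyp3a16 with 0.530 and Cyp3a41a with 0.205. In that order Cyp3a11 lay clear of Cyp3a25, Cyp2b9 of Cyp3a13, and Cyp3a16 of Cyp3a41a, and the ranges over livers of all other neighbours overlapped. In the sgPrdx2 livers the first 4 places were the same, with means of 1130, 161, 69.3 and 39.7 CPM per kb, and no neighbours among these 4 overlapped. Cyp3a44 stood in the fifth place in sgCtrl livers through sgCtrl liver 7.2 alone (41.2 CPM per kb, beside 1.79 and 0.408 in the others) and in the eighth in sgPrdx2 livers, at 2.59 CPM per kb, where its range over livers overlapped those of Cyp2b10 and Cyp3a16 beside it.

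As a description, genes whose level followed that of Cyp3a11 closely over the 6 livers, among the 9266 tested genes that averaged 10 CPM or more, were St3gal4 and Slc46a3 (Pearson r = 0.991 each), Cmbl (0.988) and Acsm5 (0.986). For Cyp2b9 they were Oaz2 (r = 0.994), Rpap3 (0.983), Vps11 (0.965), Klb (0.957) and Snx25 (0.905). With 6 livers of 2 groups, shared depth and tissue make-up enter such coefficients.

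Reference point matters for every direction given above, because hepatocyte markers stood higher in the sgPrdx2 libraries. All 10 hepatocyte markers examined were higher there on the TMM scale and 6 of them passed the test, with a median log2 fold change of 1.06, and their summed level was 75800 to 83200 CPM in sgCtrl and 133000 to 183000 CPM in sgPrdx2 livers. Markers of other liver cells lay lower. Their summed levels in sgCtrl against sgPrdx2 livers were 3260 to 3680 against 2270 to 2980 CPM for macrophages, 2300 to 2660 against 1690 to 1770 CPM for stellate cells, 452 to 464 against 339 to 430 CPM for endothelial cells, 1720 to 1950 against 1300 to 1480 CPM for cholangiocytes, and 94.0 to 110 against 54.9 to 78.4 CPM for lymphocytes. Fold changes were below 0 for 10, 8, 9, 9 and 8 of the 10 markers of these types, 1 macrophage, 1 endothelial and 1 lymphocyte marker fell at an adjusted p under 0.05 (edgeR), and no marker of these 6 cell types was at 0 in any liver. Spp1 held most of the cholangiocyte sum, at 1490 to 1710 against 1080 to 1260 CPM. Ptprc was the largest part of the lymphocyte sum, at 58.6 to 71.1 against 26.7 to 44.4 CPM. Lyz2 held most of the macrophage sum, at 1980 to 2060 against 1340 to 2080 CPM, and overlapped between the groups (adjusted p = 0.346, edgeR). The macrophage, cholangiocyte and lymphocyte sums therefore follow mainly 1 gene each.

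Alb made up most of the summed level of the 10 hepatocyte markers, at 58800 to 62600 CPM in sgCtrl and 97600 to 128000 CPM in sgPrdx2 livers. A scale set by that sum therefore rests mainly on Alb. On the TMM scale the log2 fold changes of the 10 markers ran from 0.30 (Hnf4a) to 1.46 (Hpd). Scaled to the summed counts of the 10 hepatocyte markers in place of TMM, the median of all tested genes became -1.01 and the members shifted with it. Cyp3a11 then had a log2 fold change of -0.19, Cyp3a16 of -0.16, Cyp2b9 of -0.43 and Cyp2b10 of -0.33, whereas Cyp3a25 (0.10), Cyp3a59 (0.11) and Cyp2b13 (0.48) stayed above 0. Cyp3a13 fell by 0.52 (adjusted p = 0.0239) and Cyp3a44 by 3.49 (adjusted p = 0.0179, edgeR) on that scale, where 13645 of the 17032 genes were called. Scaled to 6 housekeeping genes, the median of all genes was -0.38 and the 8 members above 0 stayed there (0.11 to 1.21). Cyp3a59 no longer passed (0.74, adjusted p = 0.0745, edgeR). The 6 genes, Atp5b, Bag6, Cox8a, Hint1, Hnrnpa2b1 and Ndufa2, are those the study normalized its prognostic liver signature to. On the TMM scale 5 of them lay above 0 and 1 below, with a median of 0.43, and edgeR called none. A change of scaling moves all genes nearly alike, so distances from the median of all genes hardly differ between scalings by construction. That distance was 0.82 for Cyp3a11, 1.11 for Cyp3a25 and 1.12 for Cyp3a59 under both alternatives, and -2.45 and -2.48 for Cyp3a44.

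**Figure D3:**
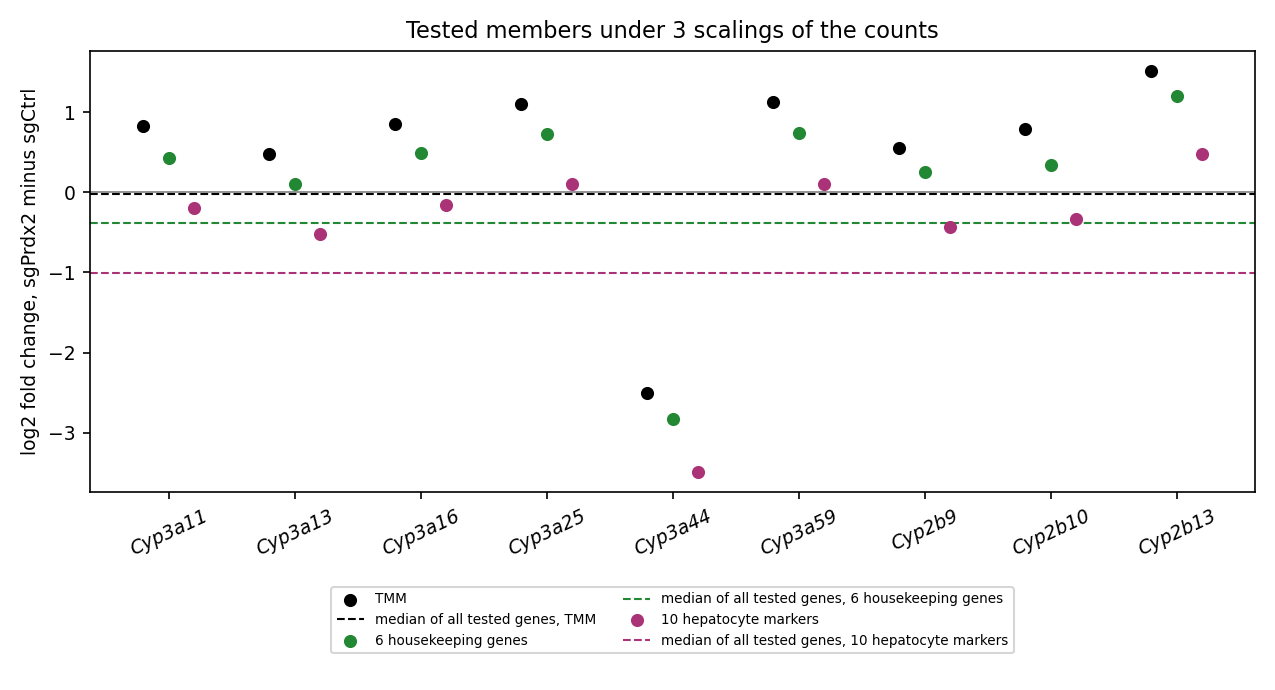
Log2 fold change of the 9 tested members under TMM (black), scaling to 6 housekeeping genes (green) and scaling to 10 hepatocyte markers (purple), with dashed lines for the median of all tested genes under each. The medians move from -0.02 to -0.38 and -1.01, and on the purple scale Cyp3a11, Cyp3a13, Cyp3a16, Cyp2b9 and Cyp2b10 pass from above 0 to below it.

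The receptors of the pathway showed no call. Nr1i2, which encodes PXR, stood at 85.2, 56.0 and 57.9 CPM in sgCtrl livers and 73.4, 68.0 and 89.2 CPM in sgPrdx2 livers (log2 fold change 0.21 ± 0.20 SE, adjusted p = 0.532, edgeR). Nr1i3, which encodes CAR, varied more, with 422, 183 and 121 CPM against 494, 294 and 476 CPM (0.80 ± 0.44 SE, adjusted p = 0.294, edgeR). The shared partner Rxra did not overlap between groups, at 266, 302 and 268 CPM against 397, 350 and 407 CPM (0.47 ± 0.14 SE, adjusted p = 0.0983, edgeR). Nr0b2, the corepressor SHP, ranged from 14.0 to 54.3 CPM in sgCtrl and from 48.6 to 80.8 CPM in sgPrdx2 livers, with an adjusted p of 0.172. Of the 15 receptors, coregulators and liver factors listed, 10 were above 0 and 5 below, with a median log2 fold change of 0.30, and edgeR called 0 of them, with an unadjusted p under 0.05 for 5 higher and 1 lower, while DESeq2 called 3, all higher. Over all tested genes 24.9% had an unadjusted p under 0.05 by edgeR, and DESeq2 called 14% of its genes, 7.89% higher. Of the 15, 7 stayed above 0 under housekeeping scaling and 1 under hepatocyte scaling. The smallest p in that list was that of Cebpa, a liver-enriched transcription factor, at 0.67 (adjusted p = 0.0772, edgeR).

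Genes that supply these enzymes with electrons and heme all had fold changes above 0 on the TMM scale, 12 of 12 with a median of 0.47, of which 9 stayed above 0 under housekeeping scaling and 0 under hepatocyte scaling. None passed edgeR's test, and 7 had an unadjusted p under 0.05, beside 24.9% of all tested genes in either direction. DESeq2 called 5, all higher, beside 14% of its genes in either direction and 7.89% higher. The reductase Por stood at 489, 193 and 207 CPM in sgCtrl livers and 302, 306 and 475 CPM in sgPrdx2 livers, an overlap with the highest value in sgCtrl liver 5.1. Cyb5a, cytochrome b5, did not overlap, at 798, 753 and 644 CPM against 1190, 1050 and 1330 CPM (0.70 ± 0.16 SE, adjusted p = 0.0575, edgeR). Alas1, the rate-limiting enzyme of heme synthesis and itself a drug-inducible gene, ranged from 225 to 771 CPM in sgCtrl and from 275 to 1220 CPM in sgPrdx2 livers (adjusted p = 0.621). Alad, the enzyme after it, was at 0.90 on the log2 fold change scale (adjusted p = 0.0555, edgeR).

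Other textbook PXR and CAR targets were mixed. Of 31 listed genes 30 were tested, 20 had fold changes above 0 and 10 below, and the median was 0.19. At an adjusted p under 0.05, 3 rose and 1 fell by edgeR, beside the 1.79% and 1.54% of all genes. Its unadjusted p stood under 0.05 for 9 higher and 2 lower genes, beside 24.9% of all genes in either direction. DESeq2 called 8 higher and 2 lower, beside 7.89% of its genes higher and 14% in either direction. The carboxylesterase Ces2a stood at 18.0, 22.8 and 12.2 CPM in sgCtrl livers and 67.1, 47.7 and 110 CPM in sgPrdx2 livers (log2 fold change 2.09, adjusted p = 0.0366). The log2 fold changes of the glutathione transferase Gstt1 and of Cyp2c29 were 1.05 (adjusted p = 0.0457) and 1.06 (adjusted p = 0.0491). Abcc4, a basolateral efflux pump, fell by 1.91 on the log2 scale (adjusted p = 0.0486, all by edgeR), from 71.8, 19.8 and 43.4 CPM to 12.0, 12.8 and 11.1 CPM. Under hepatocyte scaling 4 of the 30 stayed above 0, and under housekeeping scaling 11.

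**Figure D4:**
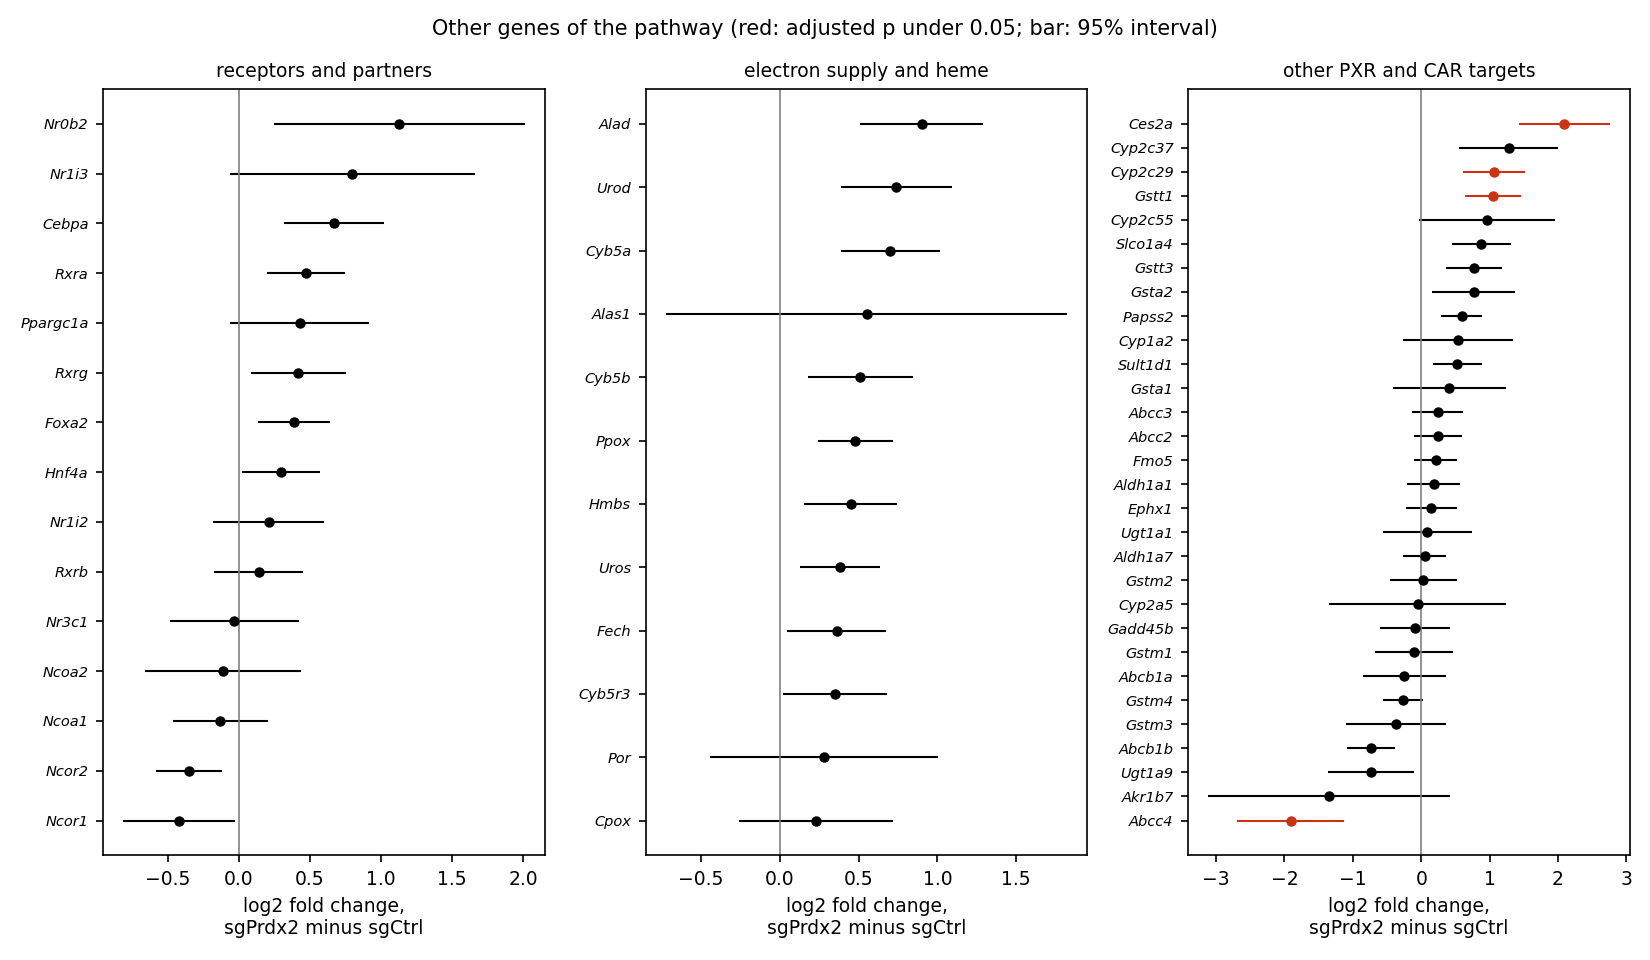
Log2 fold change of sgPrdx2 over sgCtrl livers, on the TMM scale, for the tested genes of 3 lists, with bars for 95% intervals and red for an adjusted p under 0.05. Ces2a, Cyp2c29 and Gstt1 are red on the right of 0 and Abcc4 on the left, and all 12 electron supply and heme genes lie right of 0 on this scale.

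Because several members are female-type genes, the sex-biased genes of mouse liver were set beside them. Of 20 tested female-biased genes 10 were above 0 and 10 below (median -0.14), and of 23 tested male-biased genes 22 were above 0 (median 1.05). edgeR called 0 genes in both lists, with an unadjusted p under 0.05 for 2 higher and 1 lower female-biased genes and for 8 higher male-biased genes, and DESeq2 called 1 and 2, all higher. Over all tested genes 24.9% had an unadjusted p under 0.05 by edgeR, and DESeq2 called 14% of its genes, 7.89% higher. Under hepatocyte scaling 2 of the 20 and 12 of the 23 lay above 0. The smallest p belonged to Ttc39c (1.03, adjusted p = 0.0677) and Prlr (0.80, adjusted p = 0.152) among the female-biased and to Serpina1e (2.42, adjusted p = 0.0911) and Nudt7 (1.18, adjusted p = 0.124) among the male-biased genes (log2 fold changes, edgeR). Chosen after their values were seen, the female-biased genes Cyp17a1 (76.6 CPM), Hao2 (22.7 CPM) and Cyp2a4 (1100 CPM) were, like Cyp3a44 and Cyp3a41a, highest of all 6 livers in sgCtrl liver 7.2. In the other livers Cyp17a1 ranged up to 33.3 CPM, Hao2 up to 6.77 CPM and Cyp2a4 up to 963 CPM.

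The zones of the liver lobule gave a last comparison, since most drug-metabolizing P450 genes are strongest around the central vein. Of 18 pericentral genes 16 were above 0 with a median of 0.52, and of 16 periportal genes 14 were above 0 with a median of 1.07. In each list 1 gene rose at an adjusted p under 0.05, beside 1.79% of all genes. The unadjusted p of edgeR stood under 0.05 for 9 pericentral and 11 periportal genes, beside 24.9% of all genes in either direction. DESeq2 called 5 and 9, all higher, beside 14% of its genes in either direction and 7.89% higher. The genes called by edgeR were Cyp2e1 among the pericentral genes (0.96, adjusted p = 0.0409) and Igfals among the periportal genes (1.27, adjusted p = 0.0394), followed by Lhpp (1.11, adjusted p = 0.0619) and Uroc1 (1.14, adjusted p = 0.0585), all log2 fold changes by edgeR. The median of the 9 tested members, 0.83, lay between those of these lists, and under hepatocyte scaling it was -0.19 where the pericentral median was -0.51 and the periportal median 0.09. Cps1 and Hnf4a stand both among the hepatocyte markers and in another list, as do Cyp1a2 and Cyp2a5 among the pericentral genes and the PXR and CAR targets. Whether cell make-up or zonation has a part in the members' values was not tested.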

How the data were processed

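RNA was extracted from 6 frozen mouse livers and sequenced by the study, 3 per group, and each liver was placed in its group by the guide RNA given in its label. The authors deposited 1 table of unnormalized counts (whole reads for 52459 genes in each liver), made per the submitters' processing notes with HISAT2, HTSeq and build GRCm38. The versions, the annotation, the strandedness and the handling of reads that match several genes are not given in the sources used here. A second deposited table holds the authors' own DESeq2 comparison of the groups (mean normalized value, fold change, standard error, test statistic and p-values), and it was not used here.

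The counts were fitted with edgeR 4.0.16 under R 4.3.3. After filterByExpr (minimum count 10) and TMM scaling, the groups were compared by the quasi-likelihood test (glmQLFit, glmQLFTest) over all 6 livers without covariates. A gene with a Benjamini-Hochberg adjusted p under 0.05 over all 17032 tested genes was called. A standard error is the absolute log2 fold change over the root of its F value, and 95% intervals take them as normal. The biological coefficient of variation was 0.213. Intervals and the limit of 3 counts set for a count of 0 cover counting error and the spread between these livers only. The fit was tested on simulated counts of 17032 genes, drawn with the spread that edgeR estimated, with 200 genes changed 4-fold. There edgeR called 213 genes, 15 of them falsely, and DESeq2 called 251, 52 of them falsely. Lengths, coordinates and shared stretches of 50 bases come from the GENCODE annotation of GRCm38, which may differ from the annotation behind the counts, and upstream sequences from RefSeq.

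The 10 members and all gene lists were chosen with earlier results of these data known. Named genes are the 10 members, the other Cyp3a and Cyp2b genes of the table, Prdx2, the receptors Nr1i2, Nr1i3, Rxra and Nr0b2, the genes Por, Cyb5a and Alas1, the 2 genes with the smallest p, or those called, in each list of pathway, sex-biased or zonated genes, and for likeness the 5 genes with the highest Pearson r of log2 CPM (prior count 2). A result that this rule would name is not reported here. Outside this rule, Cyp17a1, Hao2, Cyp2a4, Xist and 4 Y-linked genes were picked with their values in view. So were the cell type markers Alb, Hnf4a, Hpd, Lyz2, Spp1 and Ptprc. The 6 housekeeping genes are named as a whole set. Alternatives tried were normalization by RLE or upper quartile, scaling to 10 hepatocyte markers or 6 housekeeping genes, DESeq2 1.42.0, other filters on low counts, adjusted p under 0.01 or 0.10, and leaving out each liver.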

Additional observations from a re-analysis of the deposited data

How the results depend on the processing

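RLE normalization called 568 genes and upper-quartile normalization 566, close to the 567 with TMM. All genes called came to 13645 when scaled to hepatocyte markers, 989 when scaled to housekeeping genes, 2066 with DESeq2 and 1128 with no filter on low counts, and the members called came to 2, 0, 5 and 4 under these. With at least 10 counts in every liver 2 members were called (Cyp3a59 and Cyp3a25), at an adjusted p under 0.01 none, and at 0.10 there were 4. Leaving out 1 liver called 0 to 619 genes and 0 to 0 members by edgeR, with an unadjusted p under 0.05 for 3114 to 4436 genes and 4 to 8 members. It was 0 genes without any 1 of sgCtrl livers 5.1 and 7.2 and sgPrdx2 livers 1.1 and 1.3, 394 without sgCtrl liver 7.1 and 619 without sgPrdx2 liver 3.2. Leaving out sgCtrl liver 7.2 and sgPrdx2 liver 3.2 together, added after seeing the data, called 0 genes and 0 members by edgeR, with an unadjusted p under 0.05 for 3888 genes and 8 members. Fold changes that turned were, under hepatocyte scaling, those of Cyp3a11 (-0.19), Cyp3a13 (-0.52), Cyp3a16 (-0.16), Cyp2b9 (-0.43) and Cyp2b10 (-0.33), that of Cyp3a44 without sgCtrl liver 7.2 (1.23) or without both livers (0.67), and that of Cyp2b10 without sgPrdx2 liver 3.2 (-1.18). The cause of these changes was not tested. Of the other fold changes recomputed per member and setting, 97 kept direction and side of the threshold, 9 passed it newly, 9 no longer did, and 2 (Cyp3a44 and Cyp2b10 with DESeq2) kept direction without an adjusted p. No paired analysis was possible because the mouse numbers differ between the groups. Depth limits Cyp3a41a, with 0 to 45 counts per liver, which was left untested.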
